A study of Mus musculus with 6 samples.

Results

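Male mouse liver reads the rhythm of growth hormone, and 10 genes that belong to that response were followed through 6 livers: the STAT5 feedback genes Socs2 and Cish, and the pulse targets Hsd3b5, Slco1a1, C8b, Selenbp2, Serpina4-ps1, Mup20, Elovl3 and Cyp7b1. They were taken by symbol from a table of 332 genes, in which each of the 10 had 1 row. All mice were male, of the Kunming stock, 6 to 8 weeks old and 20 to 28 g; 3 were given oral gigantol (10 mg/kg) and 3 an equal volume of vehicle, and livers were taken 4 h later. Gigantol is a plant bibenzyl that the series title calls an agonist of the nuclear receptors PPARα and PPARγ; no genetic change is given for either group, and each group's model is 1 dose and 1 time in an outbred stock. The sample titles carry the name of a human pancreatic line, PANC1, with OE or Vector, and the groups follow the treatment label of each sample instead.

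Growth hormone leaves the pituitary in separate pulses in male mice and more evenly in females. In the hepatocyte it engages its receptor, the attached kinase JAK2 phosphorylates STAT5, and STAT5 enters the nucleus and turns on transcription. Socs2 and Cish are among its early targets; their proteins carry an SH2 domain and a SOCS box and damp the receptor, which makes them a negative feedback. Hsd3b5, Slco1a1, Mup20, Elovl3 and Cyp7b1 are textbook examples of liver genes that are higher in males and depend on the pulsatile pattern.

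The table is a selection made on the contrast described here. No row of the authors' deposited table had an absolute log2 fold change under 1.00 or a p above 0.0499, and C8b, at 1.01, lay closest of the 10 to that limit. The 10 genes were in turn chosen by their direction and size in these same livers. Fold changes, false discovery rates (FDR) and counts between gigantol and vehicle livers are therefore given as description, and nothing is read from them as a test. The words rose and fell are kept for genes under an FDR of 0.05, as the authors' deposited table gives it after adjustment over 13192 genes. Levels are CPM, a gene's share of the reads of its library, and are listed for replicates 1, 2 and 3 in that order. Library depth, worked out from the smallest CPM steps, was close to 21200000 to 24600000 reads with gigantol and 23100000 to 26700000 reads with vehicle, and 3 reads were worth 0.112 to 0.141 CPM. In bulk liver, fewer cells of a type and less RNA per cell cannot be told apart.

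STAT5 dimers favour the palindrome TTCNNNGAA. RefSeq promoters (build GRCm38.p6) were at hand for 5 of the 10 genes, and the 250 bases before the start of each were searched for TTCNNNGAA and for its wider-spaced form TTCNNNNGAA; both read the same on either strand. TTCNNNGAA was in 0 of the 5 windows, against 7.02% of 32851 mouse promoter windows and 8.40% of 238 windows of listed genes. TTCNNNNGAA was in 2 of the 5, those of Hsd3b5 and C8b, against 5.85% and 6.72%. The windows of Cish, Slco1a1 and Selenbp2 held neither form. The 2 windows with a match, in capitals, and that of Cish, the feedback gene, are given 5′ to 3′ along the gene's strand, since these are the pulse targets and the STAT5 target whose letters bear on the search. The windows are chr3:98645535-98645784 (minus strand) for Hsd3b5, chr4:104766067-104766316 (plus) for C8b and chr9:107296409-107296658 (plus) for Cish.
Hsd3b5: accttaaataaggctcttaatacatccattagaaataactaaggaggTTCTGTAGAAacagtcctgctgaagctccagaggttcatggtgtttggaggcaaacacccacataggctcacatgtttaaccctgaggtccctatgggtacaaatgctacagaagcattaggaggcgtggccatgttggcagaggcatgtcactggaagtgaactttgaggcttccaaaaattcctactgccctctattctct
C8b: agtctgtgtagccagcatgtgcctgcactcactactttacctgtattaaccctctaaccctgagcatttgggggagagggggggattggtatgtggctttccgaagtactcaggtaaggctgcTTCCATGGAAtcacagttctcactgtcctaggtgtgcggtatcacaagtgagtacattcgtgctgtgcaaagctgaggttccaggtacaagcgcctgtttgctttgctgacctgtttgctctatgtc
Cish: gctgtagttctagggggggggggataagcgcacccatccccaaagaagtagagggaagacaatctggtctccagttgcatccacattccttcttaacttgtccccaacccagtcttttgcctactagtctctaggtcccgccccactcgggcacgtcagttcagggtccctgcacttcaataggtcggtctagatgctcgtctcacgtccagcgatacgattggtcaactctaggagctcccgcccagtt
The Hsd3b5 match, TTCTGTAGAA, lay 203 to 194 bases before the start and the C8b match, TTCCATGGAA, 127 to 118 bases before it. A match is a string of letters and was not tested as a binding site, and its lack in a window says nothing of sites elsewhere in the gene. The windows follow RefSeq starts. Whether these adjoin the gene spans of the deposited table, which is on another build, was not checked.

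Both feedback genes were lower in the gigantol livers. Socs2, which restrains the growth hormone receptor, was at 7.67, 13.3 and 9.43 CPM with gigantol and at 18.0, 41.4 and 46.2 CPM with vehicle. Every gigantol liver lay below every vehicle liver, and vehicle replicate 1 stood well under its 2 companions. The means were 10.1 ± 2.87 and 35.2 ± 15.1 CPM (SD, n = 3 each), a 3.48-fold lower level, and Socs2 fell (authors' deposited table, FDR 0.000694). Cish, a relative of Socs2 that competes for docking sites on activated receptors, was at 4.71, 11.1 and 4.35 CPM with gigantol and at 12.8, 19.8 and 18.7 CPM with vehicle. These groups also did not overlap, but only just: gigantol replicate 2 came within 1.16-fold of vehicle replicate 1. The means, 6.71 ± 3.78 and 17.1 ± 3.75 CPM (SD, n = 3 each), differed 2.55-fold, and the authors' deposited table put Cish at an FDR of 0.0587. limma log2(CPM + 1) changes were −1.63 ± 0.493 (SE) for Socs2 and −1.31 ± 0.459 for Cish. Without gigantol replicate 2 and vehicle replicate 1 together, the difference in means was 5.12-fold for Socs2 and 4.25-fold for Cish. For both genes these livers lay nearest the other group, so leaving them out had to widen the difference. They were picked after seeing the data.

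**Figure D1:**
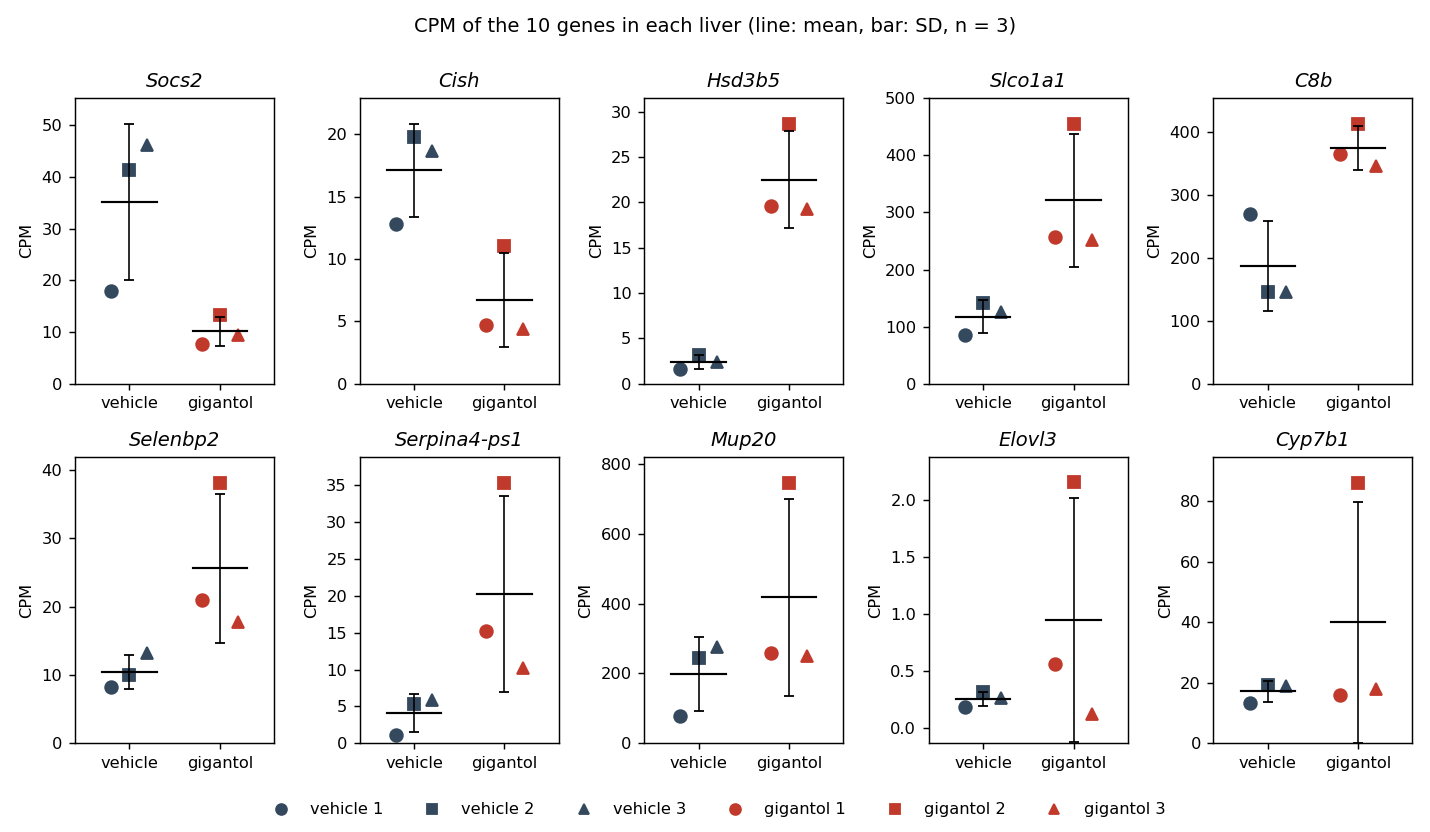
CPM of the 10 genes in each of the 6 livers, by group; symbols mark the replicate, horizontal lines the group mean and bars the SD (n = 3). Socs2 and Cish are lower in all gigantol livers, 5 pulse targets are higher in all of them, and gigantol replicate 2 is the top gigantol liver in each panel.

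The pulse targets went the other way, with 8 of 8 means higher in the gigantol livers, which follows from their having been picked for being higher. By the authors' log2 fold change, 119 of the 332 listed genes were higher. Hsd3b5, a member of the hydroxysteroid dehydrogenase family expressed chiefly in male liver, was at 19.6, 28.7 and 19.2 CPM with gigantol and at 1.57, 3.13 and 2.39 CPM with vehicle. The lowest gigantol liver was still 6.15-fold above the highest vehicle liver, the widest gap of the 10. Hsd3b5 rose 9.53-fold, from 2.36 ± 0.778 to 22.5 ± 5.34 CPM (SD, n = 3 each; authors' deposited table, FDR 1.09e-21). Its limma log2(CPM + 1) change was 2.81 ± 0.406 (SE). Slco1a1, which carries bile acids and other organic anions into the hepatocyte, was at 256, 455 and 252 CPM with gigantol and at 85.7, 141 and 125 CPM with vehicle. Its groups did not overlap, and gigantol replicates 1 and 3 were nearly equal. Slco1a1 rose 2.74-fold (authors' deposited table, FDR 0.000708), with a limma log2(CPM + 1) change of 1.42 ± 0.511 (SE).

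Among the secreted proteins, C8b, the beta chain of a terminal complement component, was at 365, 414 and 347 CPM with gigantol and at 270, 146 and 146 CPM with vehicle. Vehicle replicate 1 was the high liver of its group here, where in the other 9 genes it was the low one. C8b rose 2.00-fold, from 187 ± 71.3 to 375 ± 34.8 CPM (SD, n = 3 each; authors' deposited table, FDR 0.0412). Without vehicle replicate 1 the difference was 2.57-fold. The limma log2(CPM + 1) change of C8b was 1.06 ± 0.503 (SE). Mup20, a major urinary protein that serves as a male pheromone, was at 259, 745 and 249 CPM with gigantol and at 78.2, 245 and 275 CPM with vehicle. Gigantol replicates 1 and 3 sat inside the range of the vehicle livers. Its 2.09-fold higher mean rested on the high gigantol replicate 2 and the low vehicle replicate 1. The ratio of means was 1.27 without the former and 1.61 without the latter. The authors' deposited table put Mup20 at an FDR of 0.585. Without gigantol replicate 2 and vehicle replicate 1 the ratio of the Mup20 means was 0.977.

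Selenbp2, a selenium-binding protein, and Serpina4-ps1, a pseudogene of a serine protease inhibitor, made up the rest of the 5 that rose. Selenbp2 was at 21.0, 38.1 and 17.8 CPM with gigantol and at 8.20, 10.1 and 13.2 CPM with vehicle, a 2.44-fold difference (authors' deposited table, FDR 0.0238). Serpina4-ps1 was at 15.3, 35.3 and 10.2 CPM with gigantol and at 1.09, 5.32 and 5.90 CPM with vehicle, a 4.94-fold difference (authors' deposited table, FDR 0.0187). Neither gene had overlapping groups, though both depended in size on which livers were counted. Without gigantol replicate 2 and vehicle replicate 1 the ratio of means was 1.67 for Selenbp2 and 2.27 for Serpina4-ps1, against 7.05 for Hsd3b5, 1.91 for Slco1a1 and 2.44 for C8b. Except for C8b, these were the highest gigantol and the lowest vehicle liver of each gene, so leaving them out had to lower the ratio.

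The lipid enzymes among the pulse targets owed much or all of their higher means to 1 liver, gigantol replicate 2. Cyp7b1, an oxysterol hydroxylase of the alternative route to bile acids, was at 16.0, 85.8 and 18.0 CPM with gigantol and at 13.3, 19.4 and 18.9 CPM with vehicle. Gigantol replicates 1 and 3 lay within the vehicle range, and without gigantol replicate 2 the ratio of means was 0.987. Elovl3, which elongates very long chain fatty acids, was at 0.565, 2.16 and 0.122 CPM with gigantol and at 0.187, 0.313 and 0.260 CPM with vehicle. These are few reads: 12, 46 and 3 with gigantol and 5, 8 and 6 with vehicle, so that gigantol replicate 3 was at the 3-read floor. Without gigantol replicate 2 the Elovl3 ratio of means was 1.36, with gigantol replicate 1 also above every vehicle liver. The exact Poisson 95% interval of gigantol replicate 2, 1.58 to 2.88 CPM, lay above those of the other 5 livers, whose upper bounds reached 0.356 to 0.987 CPM; intervals cover counting error only. The authors' deposited table put Cyp7b1 at an FDR of 0.545 and Elovl3 at 0.585.

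Counted over the 10 genes, 6 were under an FDR of 0.05 by the authors' deposited table, where 25.9% of the 332 listed genes were. These were 5 higher and 1 lower, against 10.2% and 15.7% of listed genes. The gigantol and vehicle livers did not overlap for 7 of the 10, near the 72.0% of all listed genes. In 5 all gigantol livers were above (23.5% of listed genes) and in 2 all were below (48.5%). limma, fitted to the 201 genes with at least 1 CPM in 3 or more livers, covered 9 of the 10 (not Elovl3); 6 of the 9 had an adjusted p under 0.05, against 55.2% of genes tested, with 4 higher (19.9%) and 2 lower (35.3%). These 6 were not all the authors' 6: limma passed Cish (limma adjusted p 0.0405) and not C8b (limma adjusted p 0.0734). The rule that chose the genes used this contrast, so nothing is read from these counts. The median authors' log2 fold change of the 8 pulse targets was 1.38 and that of all 332 listed genes −1.15. On the limma log2(CPM + 1) scale, the 7 pulse targets tested had a median change of 1.16 and the 201 genes −0.72.

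**Figure D2:**
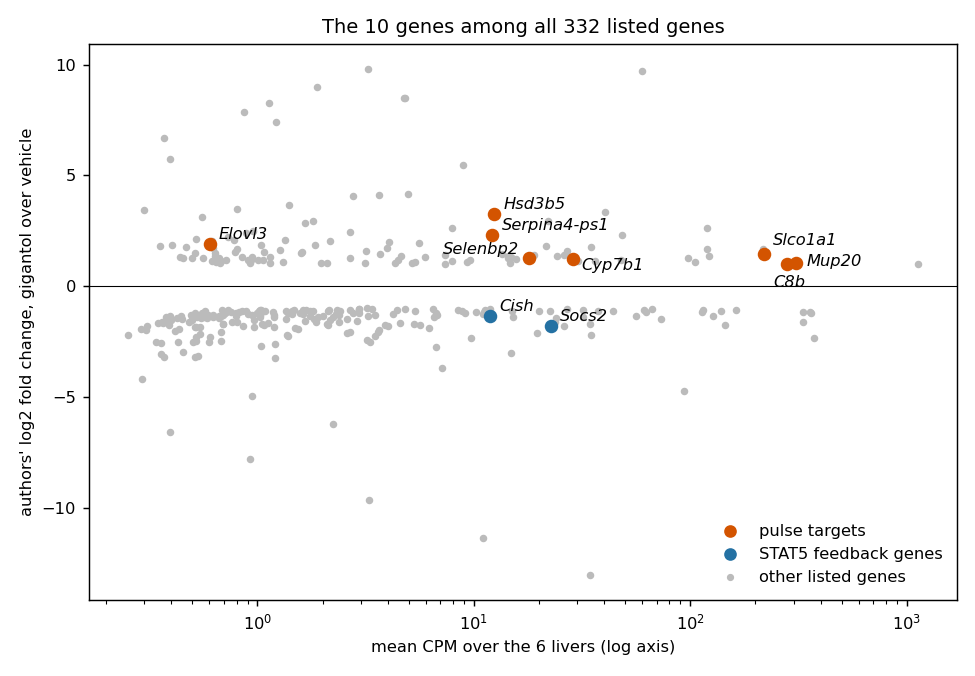
Authors' log2 fold change (gigantol over vehicle) against mean CPM over the 6 livers (log axis) for all 332 listed genes, with the 8 pulse targets in orange and Socs2 and Cish in blue. The empty band around 0 reflects the selection of rows with log2 fold changes past 1.00 in either direction, and the 10 genes span means from under 1 CPM for Elovl3 to about those of C8b and Mup20.

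Among gigantol livers the feedback genes and the pulse targets varied in the same direction. Among vehicle livers most pulse targets did so, but C8b ran opposite to Socs2 and Cish. Selenbp2 lay just below its group mean in vehicle replicate 2, where Socs2 and Cish lay above theirs. Gigantol replicate 2 was the highest gigantol liver for 10 of 10 genes, Socs2 and Cish included, where it was the highest for 39.5% of all listed genes. Vehicle replicate 1 was the lowest vehicle liver for 9 of 10, C8b being the exception, where it was the lowest for 44.0% of listed genes. Both held for 9 of the 10 and for 63 of the 332 listed genes (19.0%). This order is not free of the choice of genes. Without gigantol replicate 2 the ratio of means fell to 1.27 for Mup20, 1.36 for Elovl3 and 0.987 for Cyp7b1, so a high gigantol replicate 2 helped to place them in the table. The shares of listed genes cover higher and lower genes together. The order was also noticed in these livers and the genes share the libraries, so it is given as a description. In gigantol replicate 2 the 10 genes lay 0.15 to 1.52 above their own group mean on the log2(CPM + 1) scale, with a median of 0.69, while the median listed gene lay at 0. In vehicle replicate 1 the median of the 10 was −0.36 and that of all listed genes −0.01. Cyp7b1 had the largest deviation in gigantol replicate 2 (1.52) and C8b the smallest (0.15). Gigantol replicate 2 was also the library with the largest share of its CPM in the listed genes, 0.842% against 0.637% and 0.653% in gigantol replicates 1 and 3. Vehicle replicate 1, low for 9 of the 10, had the largest share among vehicle libraries as well, 0.818% against 0.775% and 0.698%; the part of these shares in the order of the livers was not tested.

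**Figure D3:**
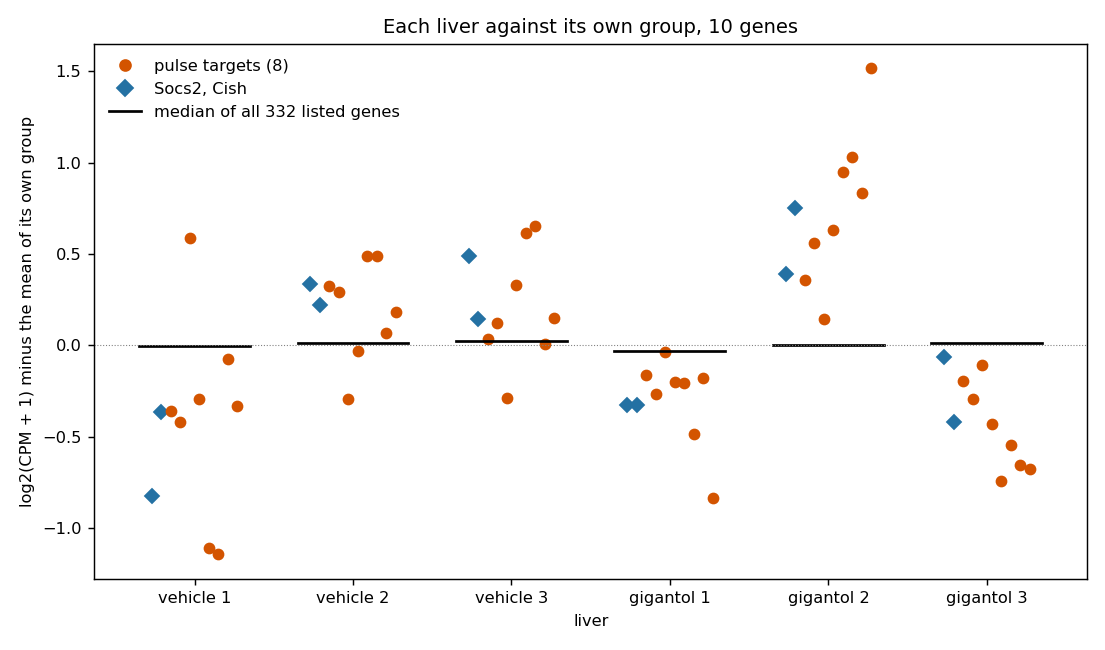
Deviation of each liver from the mean of its own group, in log2(CPM + 1), for the 8 pulse targets (orange circles) and for Socs2 and Cish (blue diamonds); black bars are the median of all 332 listed genes. All 10 genes lie above 0 in gigantol replicate 2 and below 0 in gigantol replicates 1 and 3, and in vehicle replicate 1 C8b alone lies above 0.

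The ratio of a pulse target to a feedback gene within 1 liver does not depend on how the library was scaled. It is not corrected for transcript length, so that only its change between livers can be read. Hsd3b5 over Socs2 was 2.56, 2.16 and 2.04 with gigantol and 0.0873, 0.0755 and 0.0516 with vehicle. The ratio varied 1.25-fold among gigantol livers, less than Hsd3b5 (1.49-fold) or Socs2 (1.73-fold) alone, and its lowest gigantol value was 23.3-fold above its highest vehicle value. Slco1a1 over Cish was 54.4, 41.1 and 57.9 with gigantol and 6.69, 7.13 and 6.71 with vehicle. The 3 vehicle livers thus differed 1.07-fold in this ratio, while Slco1a1 differed 1.65-fold and Cish 1.55-fold. Cyp7b1 over Cish was 1.04, 0.980 and 1.01 in the vehicle livers, and 3.39, 7.75 and 4.13 in the gigantol livers. Mup20 over Cish was 55.1, 67.3 and 57.2 with gigantol, although Mup20 itself varied 2.99-fold there, and 6.11, 12.4 and 14.7 with vehicle. Mup20, Cyp7b1 and the few reads of Elovl3 overlapped between groups in their own levels, but not once set against Cish of the same liver. Cish was lower in every gigantol liver and was picked for being lower. Dividing by it moves the groups apart, so nothing is read from this. Not every ratio varied less than its genes. Among vehicle livers C8b over Socs2 varied 4.73-fold, where C8b varied 1.85-fold and Socs2 2.57-fold. C8b over Cish varied 2.85-fold there, also more than either gene. All 16 ratios of 8 pulse targets to 2 feedback genes were without overlap. That count has little weight on its own, since 90.4% of the 20094 ratios of a higher to a lower listed gene, among genes with no 0, were also without overlap. In 8 of the 16 ratios the log2 SD among gigantol livers was below that of both genes taken singly, and likewise in 8 of 16 among vehicle livers. This count was not made for ratios of other listed genes, so nothing is read from it.

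**Figure D4:**
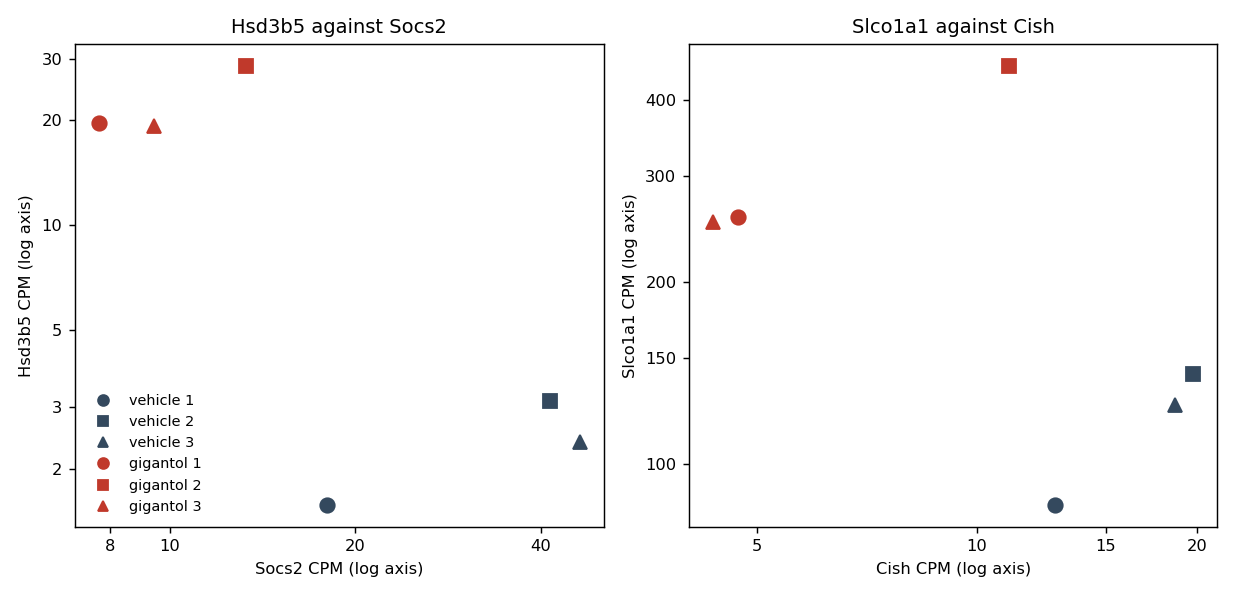
CPM of Hsd3b5 against Socs2 (left) and of Slco1a1 against Cish (right) in the 6 livers, log axes; colours mark the group and symbols the replicate. Gigantol livers sit at upper left and vehicle livers at lower right, while the liver with the most Slco1a1 in each group is also the one with the most Cish.

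The other genes of the axis were looked up in lists of growth hormone signalling, its feedback, its transcription factors and the IGF axis. Of the 8 feedback family genes (Cish and the Socs genes), Socs2 and Cish were the 2 listed. The 18 signalling genes, among them Ghr, Jak2 and Stat5b, and the 17 transcription factors, among them Bcl6 and Cux2, were not analysed here. Of 11 IGF axis genes, 2 were listed and both fell: Igfbp1, an insulin-repressed binding protein of IGFs, from 621 ± 439 to 124 ± 63.9 CPM, and Irs2, a docking protein of the insulin receptor, from 35.5 ± 9.58 to 11.7 ± 7.64 CPM (SD, n = 3 each). The authors' deposited table gave FDRs of 0.000923 to Igfbp1 and 0.0473 to Irs2. In vehicle replicate 1, the low liver for Socs2 and Cish, Igfbp1 was at 1122 CPM against 431 and 309 CPM in its companions.

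The deposited annotation puts 6 listed genes in the KEGG JAK-STAT pathway: Socs2, Cish, Myc, Il15, Cdkn1a and Aox1. Myc, a growth-promoting transcription factor, was at 2.21, 7.32 and 2.48 CPM with gigantol and 6.67, 9.93 and 11.3 CPM with vehicle, with its highest gigantol liver (replicate 2) and lowest vehicle liver (replicate 1) the same as those of Cish; the authors' deposited table put it at an FDR of 0.325. None of the other 3 was under an FDR of 0.05 there. Il15, a cytokine, had the lower mean with gigantol, and Cdkn1a, a cell cycle inhibitor, and Aox1, an aldehyde oxidase, the higher.

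Likeness was measured over the 6 livers as the root mean square difference of log2(CPM + 1) after each gene's own mean was removed, among 200 other genes. Nearest to Cish was Myc (0.14), followed by the predicted gene Gm48942 (0.23) and Slc25a25, a mitochondrial carrier (0.24), where the median gene was at 0.76. Nearest to Socs2 were Cyp26a1, which degrades retinoic acid (0.18), the predicted gene Gm43042 (0.19) and S100a13, a calcium-binding protein (0.20), with a median of 0.84. Cish stood 0.35 from Socs2. Nearest to Hsd3b5 were Xlr3a, BC018473 and Gm45470, at 0.43, 0.47 and 0.47, with a median of 1.80. The measure grows with a gene's own range, so each distance is to be read against its own median. The log2 CPM SD over the 6 livers was 1.84 for Hsd3b5, 1.08 for Socs2 and 0.954 for Cish.

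Of 30 genes listed as higher in male liver, 11 were in the table, and 8 of these are the pulse targets, picked for being higher. The other 3 were 2 with a higher mean, neither of which rose, and 1 that fell, against 10.2% of listed genes that rose and 15.7% that fell. The gene that fell was Cyp4a12b, a male-type fatty acid hydroxylase, at 68.7, 20.9 and 108 CPM with gigantol and 155, 247 and 272 CPM with vehicle. It was lowest in gigantol replicate 2, where the 10 genes were highest. Ugt2b38 and Nox4, outside the 10, had higher means without passing. Ugt2b38 is a glucuronosyltransferase (49.8 ± 6.27 against 22.4 ± 14.2 CPM, FDR 0.186) and Nox4 an NADPH oxidase (8.90 ± 9.73 against 2.31 ± 1.21 CPM, FDR 0.244; SD, n = 3 each, FDRs from the authors' deposited table). Of 30 genes higher in female liver, 6 were listed, 3 higher and 3 lower, of which 2 rose and 2 fell. Mean CPM with gigantol against vehicle was 2.90 against 0.401 for Ntrk2 and 3.20 against 0.414 for A1bg, which rose. For Acot3 and Cyp17a1, which fell, it was 11.7 against 40.2 and 7.4 against 31.6. The authors' deposited table gave these 4 FDRs of 0.000107, 0.00176, 1.84e-11 and 0.00468 in that order.

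Of the markers looked up for other liver cell types, 14 were listed, those of Kupffer cells, lymphocytes, stellate cells, red cells and platelets. All 14 had lower means with gigantol, as had 213 of the 332 listed genes. Of the 14, 3 fell, where 15.7% of listed genes did: Marco, the globin gene Hba-a2 and the platelet chemokine gene Ppbp. Marco, the 1 of 9 Kupffer markers listed, was at 1.55 to 3.71 CPM with gigantol and 8.21 to 8.89 CPM with vehicle. The 2 of 8 stellate markers listed, Lrat and Des, summed to 6.81 to 11.9 CPM with gigantol and 13.1 to 24.5 CPM with vehicle. The 3 of 9 lymphoid markers summed to 0.565 to 0.939 and 1.99 to 2.27 CPM, the 2 of 4 platelet markers to 1.38 to 2.59 and 5.55 to 11.6 CPM, and the 6 of 7 red cell markers to 349 to 634 and 554 to 1916 CPM, where the groups overlapped. None of the listed markers was at 0 in any liver. Their part in the lower Socs2 and Cish was not tested. The 10 hepatocyte markers, and those of myeloid, endothelial and bile duct cells, were not analysed here, so the label of the tissue was not checked against them.

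The 10 genes lie on 7 chromosomes, at the coordinates of the deposited table, on a mouse build that the sources do not name. On chromosome 3 are Hsd3b5 (98525950 to 98537568), Selenbp2 (94600863 to 94611720) and Cyp7b1 (18126114 to 18297502), and on chromosome 4 are C8b (104623514 to 104661745) and Mup20 (61968471 to 61972395). Slco1a1 is on chromosome 6 (141853008 to 141892688), Cish on 9 (107173225 to 107179983), Socs2 on 10 (95221224 to 95253042), Serpina4-ps1 on 12 (104046908 to 104052983) and Elovl3 on 19 (46120336 to 46124133). In the GENCODE M21 annotation 9 are protein-coding and Serpina4-ps1 is an unprocessed pseudogene. Some reads could belong to relatives: of the 50-base words of the longest transcript, 52.0% of those of Selenbp2 occur in Selenbp1, 50.5% of those of Mup20 in other genes (chiefly Mup-ps19) and 21.2% of those of Hsd3b5 in other genes (chiefly Gm10681 and Hsd3b4). For Socs2 that share was 7.23%, for Slco1a1 2.26%, for Cish 0.194% and for C8b, Serpina4-ps1, Elovl3 and Cyp7b1 0. Cish, Hsd3b5 and Elovl3 overlap a gene on the opposite strand in that annotation (Gm17040 and Gm17041, Zfp697 and Pitx3), and the sources used here do not give the strand setting of the authors' counting, so reads of such partners cannot be told apart.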

How the data were processed

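Livers of 6 mice, 3 per group by the treatment label and all with 1 batch label, were profiled by RNA-seq after ribosomal RNA depletion with stranded libraries, per the labels' protocols. The submitters' processing notes name fastp, HISAT2 and DESeq2 1.16.1 with no role, and GRCh38, a human build, although the gene IDs are mouse; the sources used here do not give the counter or filters. The deposited table holds CPM for 332 genes, read as CPM from the values: all values under 200 reads were whole multiples of 1 step per library within 0.1 reads. It also holds the authors' log2 fold changes and the authors' p-values and FDR, per the file headers. Of 330 genes matched by ID to GENCODE M21 (GRCm38), 8 had the same coordinates and 324 the same span, so the table's build is another one.

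Summaries were made in Python 3.11.15. limma 3.58.1 (R 4.3.3) was fitted to log2(CPM + 1) where 3 or more libraries reached 1 CPM, with a two-sided test, trended and robust moderation and Benjamini-Hochberg adjustment over the 201 genes tested; the code was checked on simulated data. Fold changes on that scale understate those of low genes. The 10 genes and all lists were chosen with earlier results of these data known. The genes named are the 10, those of the lists that the table holds, and the 3 nearest in profile to Socs2, Cish and Hsd3b5; those of the deposited JAK-STAT annotation were added after their values were seen. Alternatives were the pseudocount, the filter, the variance moderation, a replicate block and leaving out libraries. Within groups, chi-square per gene between libraries was 30.5 to 244, well over counting noise, so none was counted as a repeat.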

Additional observations from a re-analysis of the deposited data

How the results depend on the processing

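The log2(CPM + 1) changes of 9 genes, their median over the pulse targets and the counts past limma were recomputed under 13 alternatives. Of 156 values 135 stayed within the spread of replicates or within 1.5 times the count, 18 moved beyond it and 3 reversed. With a pseudocount of 0.1 the change of Hsd3b5 was 3.23 (2.81 with 1). Listed genes with a limma adjusted p under 0.05 numbered 111, 169 with no filter on low values and 24 of 101 at a mean of at least 5 CPM, where 3 of the 10 genes passed instead of 6. With 1 library left out these counts ran from 32 (without vehicle replicate 2) to 136 (without vehicle replicate 1) and, for the 10 genes, from 2 to 6, with 2 without gigantol replicates 1 and 3 and without vehicle replicates 2 and 3 and 4 without gigantol replicate 2; an arm then held fewer livers, and the listed count was 57, 60 and 35 without gigantol replicates 1 and 3 and vehicle replicate 3. The change of Cyp7b1 ran from −0.0016 without gigantol replicate 2 to 1.18 without gigantol replicate 1 (0.76 with all livers), and that of Mup20 from 0.48 without vehicle replicate 1 to 1.39 (1.06 with all livers). Without both gigantol replicate 2 and vehicle replicate 1, an alternative chosen after seeing the data, Socs2 was at −2.23, Cish at −1.87, Hsd3b5 at 2.45, Slco1a1 at 0.93, Selenbp2 at 0.70, Serpina4-ps1 at 1.03, Mup20 at −0.031 and Cyp7b1 at −0.17. The median over the pulse targets ran from 0.93 to 1.39 over all alternatives. Replicate numbers do not pair the livers (correlations of same-numbered deviations 0.13, 0.15 and −0.10); with the replicate number as a block, 128 listed genes and 5 of the 10 passed. The planned count test on reads worked out from the CPM was not run. Depth limits Elovl3, with 3 to 46 reads per liver.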
